A study of Mus musculus with 4 samples.

Results

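The genes of 5 CDK inhibitors and of the 3 retinoblastoma family members were followed in C2C12 cells, an established mouse myoblast line, between growth and early differentiation. The genes were Cdkn1a, Cdkn1b, Cdkn1c, Cdkn2c, Cdkn2d, Rb1, Rbl1 and Rbl2. A gene counted as measured where the platform annotation gave its symbol alone to a transcript cluster, the set of probes that the exon array combines into 1 value. By that rule 7 of the 8 genes had a cluster, 1 cluster each, among 16658 clusters on the array, of which 14938 carried a single symbol. Cdkn2d, which encodes p19INK4d, was not among the clusters named and is not analysed here.

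Total RNA was hybridised to 4 arrays. The 2 growth arrays came from cells in DMEM with 10% fetal bovine serum, collected at 60 to 70% confluency, and the 2 differentiation arrays from cells switched at full confluency to DMEM with 2% horse serum and collected 24 h after induction. The cells of both groups are the unmodified line, with no further agent or allele in the labels. Each condition has 2 biological replicates by the series' design text. Since the cultures are described no further, the p-values measure the spread between these arrays. Serum amount, serum kind and cell density change together with the condition, so an effect of any of them and one of differentiation cannot be told apart.

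CDK inhibitors restrain the kinases that drive the cell cycle. The Cip/Kip proteins p21 (Cdkn1a), p27 (Cdkn1b) and p57 (Cdkn1c) bind cyclin-CDK complexes broadly, while the INK4 proteins, p18 (Cdkn2c) among them, bind Cdk4 and Cdk6. When the kinases are held in check, the pocket proteins Rb (Rb1), p107 (Rbl1) and p130 (Rbl2) stay unphosphorylated and hold E2F transcription factors, which keeps genes of DNA replication and mitosis off. In skeletal muscle p21 and p57 are known to act in the cell cycle exit of differentiating myoblasts, and Rb is known to be needed for myotubes to remain arrested.

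Over clusters, which are not independent replicates, log2 intensities of the growth arrays correlated at 0.984, those of the differentiation arrays at 0.986, and those across conditions at 0.939 to 0.951. The 8 myoblast markers summed to intensities of 10315 and 10347 in growth and of 17762 and 18030 in differentiation. Of the markers measured for other cell types, 5 were for blood cells, 5 endothelial, 4 epithelial, 5 neural and 5 adipocyte. Each of these 5 lists summed to between 235 and 931 on every array. The blood cell markers summed to 400.1 and 489 in growth and to 235 and 255 in differentiation, the adipocyte markers to 434 and 491 against 337 and 393, and the epithelial markers to 454 and 514 against 311 and 371. The endothelial sums were 248 and 327 against 307 and 320, and the neural sums 753 and 931 against 753 and 900. Of the myoblast markers 5 rose, and only 1 did when growth replicate 1 or a differentiation array was left out. Of the others none rose by the limma test (1 endothelial and 1 adipocyte marker at an unadjusted p under 0.05) and 4 fell (Ptprc, Cd68, Krt14 and Fabp4). Their calls could be lost with 1 array left out, growth replicate 1 or differentiation replicate 1 among them, while the falls kept their sign. With 1 array left out the changes were -1.06 to -0.81 for Ptprc, -0.94 to -0.60 for Cd68, -1.19 to -0.81 for Krt14 and -1.08 to -0.52 for Fabp4. Ptprc was dim, at 28.25 and 21.4 in growth and at 5.67 and 4.87 in differentiation. Its change ran from -2.03 to -0.36 over all alternatives. That of Fabp4, also dim, was -1.24 with 1 added before the log2 and -0.38 with 64 added, where its call was lost both times. At an unadjusted p under 0.05 all 5 blood cell markers, 1 epithelial and 2 adipocyte markers were lower. At that level 2957 of all 16658 clusters were higher and 2530 lower. By the adjusted test 8.64% of all clusters were higher and 7.52% lower. The blood cell markers did not overlap between the conditions, which held for 60.8% of all clusters. No marker was listed at 0, and the file holds no detection call that would set dim signal apart from background. The part of these markers in the results below was not tested.

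Of the 7 genes measured, 2 rose (Cdkn1a and Cdkn1c), 2 fell (Cdkn2c and Rbl1) and 3 did not pass the test (Cdkn1b, Rb1 and Rbl2). The test was limma on log2(intensity + 16) over all 16658 clusters, with Benjamini-Hochberg adjustment and a threshold of 0.05. By the same test 16.2% of all clusters passed, 8.64% higher and 7.52% lower. The share of the family that passed was above this, over only 7 genes, chosen with earlier results of these data known. That comparison is thus no independent test. The calls of Cdkn1a and Cdkn2c could be lost with 1 array left out. Such fits have fewer arrays and gave both genes larger standard errors. The changes stayed at 0.74 to 0.86 for Cdkn1a and at -0.99 to -0.77 for Cdkn2c. For each of the 7 genes the differentiation values did not overlap the growth values, which held for 60.8% of all clusters. The median change over the 7 genes was 0.34 on the log2 scale, against -0.01 over all clusters. Changes are given as differentiation minus growth with limma's standard error (SE) and mean intensities with their SD, and 2 arrays per group limit the precision of each value. Fewer cells expressing a gene and less RNA of it per cell cannot be told apart in such samples. Intensities of different genes come from different probes and are not compared with each other.

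**Figure D1:**
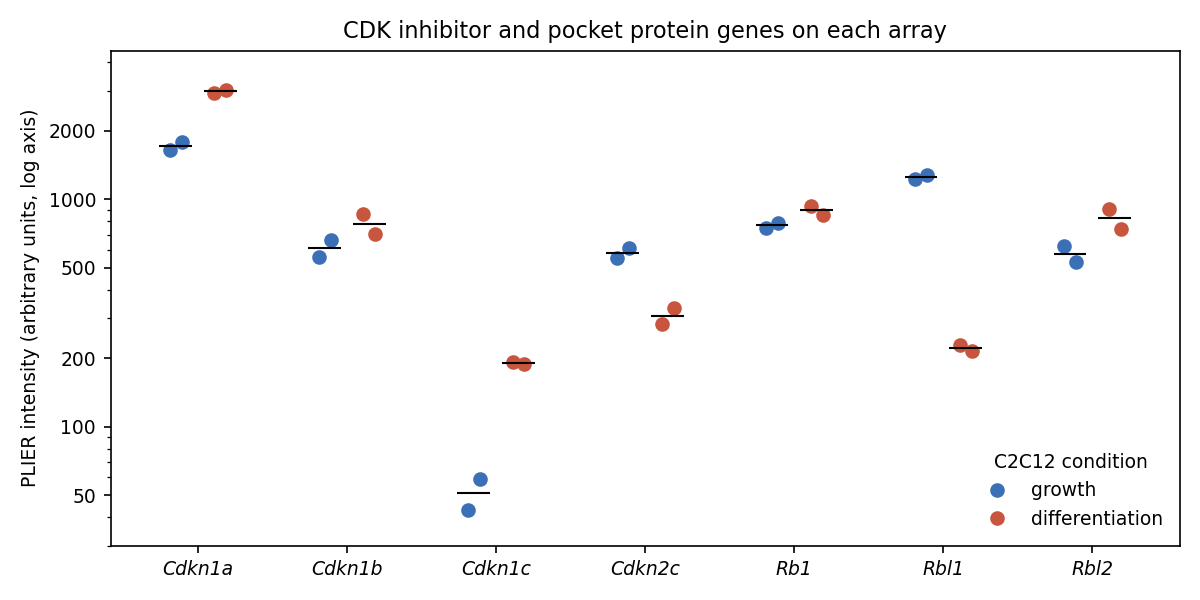
PLIER intensity of each measured gene (vertical log axis, arbitrary units) on the 2 growth arrays (blue) and the 2 differentiation arrays (red); points are single arrays and bars are group means (n = 2). Rbl1 stands out downward, from 1257 to 222, and Cdkn1c upward, from 51.1 to 191, while the points of Cdkn1b, Rb1 and Rbl2 lie close together; levels are to be compared within a gene only.

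The Cip/Kip genes had log2 changes of 0.34 to 1.64, and 2 of the 3 passed. Cdkn1c, which encodes p57 and is imprinted and expressed from the maternal allele in mouse, was at 43.1 and 59.0 in growth and at 193.5 and 188.9 in differentiation. The growth values lay near the 25th percentile of their arrays, at 52.6 and 49.6. Both differentiation values were more than 3 times either growth value, with no overlap. The mean rose from 51.1 ± 11.3 to 191 ± 3.25 (SD, n = 2), 3.75-fold, with a log2 change of 1.64 ± 0.20 SE (limma adjusted p = 0.00154). Among all clusters 104 rose further. Because Cdkn1c was dim in growth, the size of its change depended on the offset: it was 1.90 where 1 was added and 1.15 where 64 was added, past the threshold both times.

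Cdkn1a, which encodes p21, was at 1641 and 1781 in growth and at 2947 and 3017 in differentiation. The arrays of a condition lay close together and the conditions apart. The mean went from 1711 ± 99.2 to 2982 ± 49.4, 1.74-fold, and the gene rose by 0.80 ± 0.18 SE on the log2 scale (adjusted p = 0.0216), a rise that 1097 clusters exceeded. Its call was lost with 3 of the 4 arrays left out singly. The limma adjusted p was 0.0494 without growth replicate 2, which kept the call, 0.1000 without growth replicate 1, 0.105 without differentiation replicate 1 and 0.122 without differentiation replicate 2, with changes of 0.74 to 0.86 over the 4 arrays left out singly. It was also lost with an offset of 1 (adjusted p = 0.0672).

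Cdkn1b, which encodes p27, an inhibitor known to accumulate in quiescent cells largely through slower breakdown of the protein, was at 560 and 664 in growth and at 861 and 703 in differentiation. The lower differentiation array was only slightly above the higher growth array. The means were 612 ± 73.8 and 782 ± 111.9, and the log2 change of 0.34 ± 0.20 SE did not pass (adjusted p = 0.267). The 95% interval of the change ran from -0.12 to 0.80, so a rise as large as that of Cdkn1a lies at its upper end.

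Among the INK4 genes the member with a value fell. Cdkn2c, which encodes p18INK4c, was at 552 and 608 in growth and at 283 and 333 in differentiation, with no overlap. The mean fell from 580 ± 39.7 to 308 ± 35.2, 1.88-fold, with a log2 change of -0.88 ± 0.19 SE (limma adjusted p = 0.0178), and 801 clusters fell further. The direction of Cdkn2c is thus opposite to that of Cdkn1a and Cdkn1c. Its call was lost with any 1 array left out, with a limma adjusted p of 0.0537 without growth replicate 1, 0.0629 without growth replicate 2, 0.116 without differentiation replicate 1 and 0.0782 without differentiation replicate 2, while the change stayed between -0.99 and -0.77. With an offset of 1 the adjusted p was 0.0645.

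The remaining Cdkn genes of a fixed list were read beside it. Cdkn2a, the locus of p16INK4a and p19ARF, was at 211 and 143 in growth and at 163 and 119 in differentiation (-0.29 ± 0.24 SE, adjusted p = 0.424), and the groups overlapped. Cdkn2b, which encodes p15INK4b, was dim throughout, at 67.8 and 46.9 against 73.2 and 53.1 (0.11 ± 0.22, adjusted p = 0.753). Cdkn3, which despite its name encodes a phosphatase that acts on Cdk2 and Cdk1 and is known to peak in dividing cells, fell from 556 and 623 to 164 and 196 (-1.63 ± 0.19, adjusted p = 0.00134). Of the 5 genes of that list none rose and 2 fell, where 8.64% of all clusters were higher and 7.52% lower. The 2 were Cdkn3 and Cdkn2aipnl, a gene related in sequence to a partner of the Cdkn2a product ARF (-1.09 ± 0.19). The call of Cdkn2aipnl was lost without differentiation replicate 2 (adjusted p = 0.0872).

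Of the 3 pocket protein genes Rbl1 fell and the others did not pass. Rbl1, which encodes p107, the pocket protein known to be abundant in cycling cells, was at 1234 and 1280 in growth and at 229.5 and 215 in differentiation. Both growth values were more than 5 times either differentiation value. The mean fell from 1257 ± 32.4 to 222 ± 10.5, 5.66-fold, with a log2 change of -2.42 ± 0.18 SE (limma adjusted p = 0.000181). Among all clusters 118 fell further. With 1 array left out the change was -2.46 to -2.37, and Rbl1 passed the threshold under each alternative tried.

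Rbl2, which encodes p130, the pocket protein known to prevail in quiescent and differentiated cells, was at 621 and 530 in growth and at 910 and 742 in differentiation. The differentiation arrays were both higher, and the gap between them was wider than the gap from the nearer of them to growth. The means were 576 ± 63.9 and 826 ± 119.2, and the log2 change was 0.51 ± 0.20 SE, with a 95% interval of 0.05 to 0.96. The unadjusted p was 0.0342 and the limma adjusted p 0.120, so Rbl2 did not pass. It did pass with an offset of 64 (adjusted p = 0.0470), among clusters brighter than the median (0.0336) and with a variance prior that follows intensity (0.0205).

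Rb1, the founding member of the family, was at 745 and 790 in growth and at 935 and 854 in differentiation. The arrays of the conditions did not overlap, but the shift was small. The means were 767 ± 31.9 and 894 ± 57.5 and the log2 change was 0.22 ± 0.18 SE (adjusted p = 0.432). The 95% interval of -0.20 to 0.63 leaves room for a rise of up to that size and for a slight fall.

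**Figure D2:**
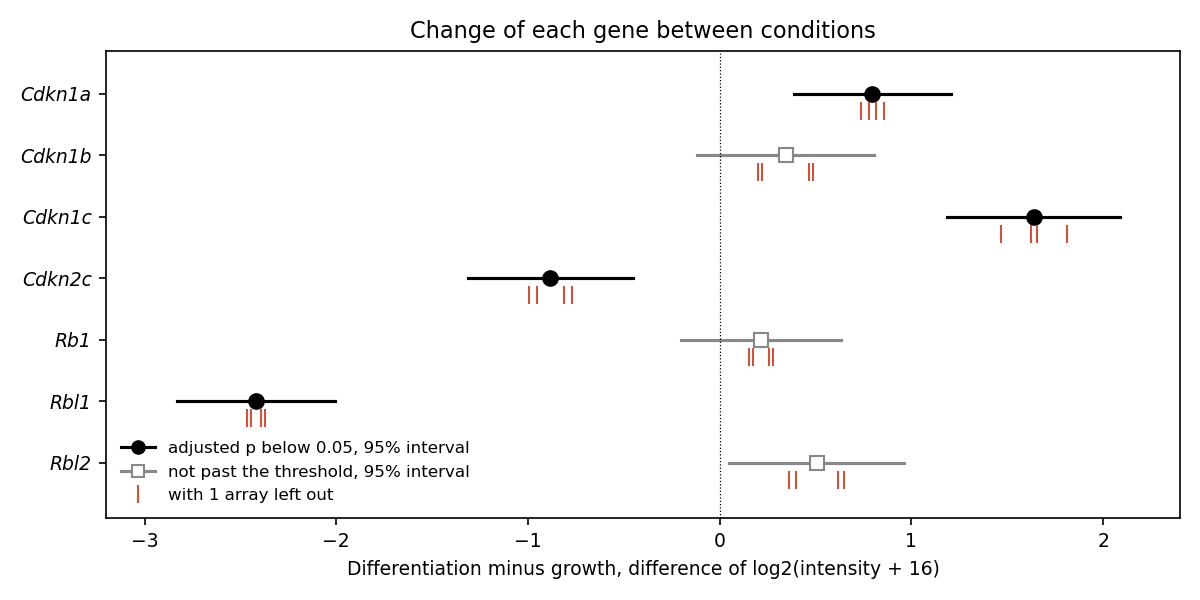
Change of each measured gene, differentiation minus growth, as a difference of log2(intensity + 16) (horizontal axis), with its 95% interval from limma; filled points passed the threshold, open squares did not, and red ticks give the change with 1 array left out. The intervals of Rbl1 (-2.83 to -2.01) and Rbl2 (0.05 to 0.96) do not overlap, and no tick of any gene crosses 0.

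The promoter of Rbl1 carries letters that E2F factors are known to bind. Whether they have a part in the fall of Rbl1 was not tested. RefSeq promoter windows of build GRCm38.p6, which cover 250 bases before to 50 bases after a start, were searched on both strands for TTTCCCGC, TTTCGCGC, TTTGCCGC and TTTGGCGC. The windows are shown 5′ to 3′ on the strand of the gene with the match in capitals. They are followed by the 3 genes of the E2F target list whose windows hold the 8 letters of the Rbl1 match in the same orientation.
Rbl1: aagaaggcgatTTTCGCGCgctttgtcgcg
Mcm5: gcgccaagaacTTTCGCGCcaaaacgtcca
Mcm7: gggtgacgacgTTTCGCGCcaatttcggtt
Cdk1: tttccgctcccTTTCGCGCtctgcgctccc
The Rbl1 stretch is chr2:157204534-157204563 on the minus strand, and its match spans bases -18 to -11 relative to the start. The Mcm5 stretch is chr8:75109345-75109374 on the plus strand, the Mcm7 stretch chr5:138171849-138171878 on the minus strand and the Cdk1 stretch chr10:69353025-69353054 on the minus strand.

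A match of this kind was present in 2.26% of 32851 promoter windows and in 9 of 21 windows (42.9%) of the E2F target list. In the family, windows were found for 6 genes, Cdkn2d among them, and Rbl1 alone held a match. Windows for Cdkn1c and Rb1 were not in the table. The cell cycle element TTTGAA, present in 17.9% of all windows, was found in that of Rbl2, and CAGCTG, an E-box form that MyoD is known to favour, in that of Rbl1 and in 1 of the 2 windows of Cdkn1a, against 16.3% of all windows. A match describes the letters and is not evidence of binding in these cells. The windows were taken from a different build from the mm9 of the array values, so they are not tied to the probes.

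Related genes were set against each other within each array. Relative to the growth mean, the log2 difference Rbl1 minus Rbl2 was -0.14 and 0.14 in growth and -3.02 and -2.82 in differentiation, a difference of change of -2.92. For Rb1 minus Rbl1 it was 2.65 and 2.61 on the differentiation arrays, against -0.02 and 0.02 in growth. For Rb1 minus Rbl2 the values were closer together, with -0.37 and -0.21 in differentiation against -0.15 and 0.15. Among the Cip/Kip genes, Cdkn1b minus Cdkn1c was lower by 1.29 in differentiation, Cdkn1a minus Cdkn1c was lower by 0.84 and Cdkn1a minus Cdkn1b was higher by 0.45. With an offset of 64 the differences of change against the dim Cdkn1c shrank to -0.83 for Cdkn1b and -0.37 for Cdkn1a. The arrays of the conditions did not overlap for any of the 6 pairs. These pairs share their genes and are not separate observations. Single clusters did not overlap in 60.8% of cases, and no such share was computed for pairs. The exact two-sided permutation test of 2 arrays against 2 gave p = 0.333 for each pair, which is the smallest p it can give and is also the value adjusted over the 6 pairs, so none of these differences can pass a test of this size.

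**Figure D3:**
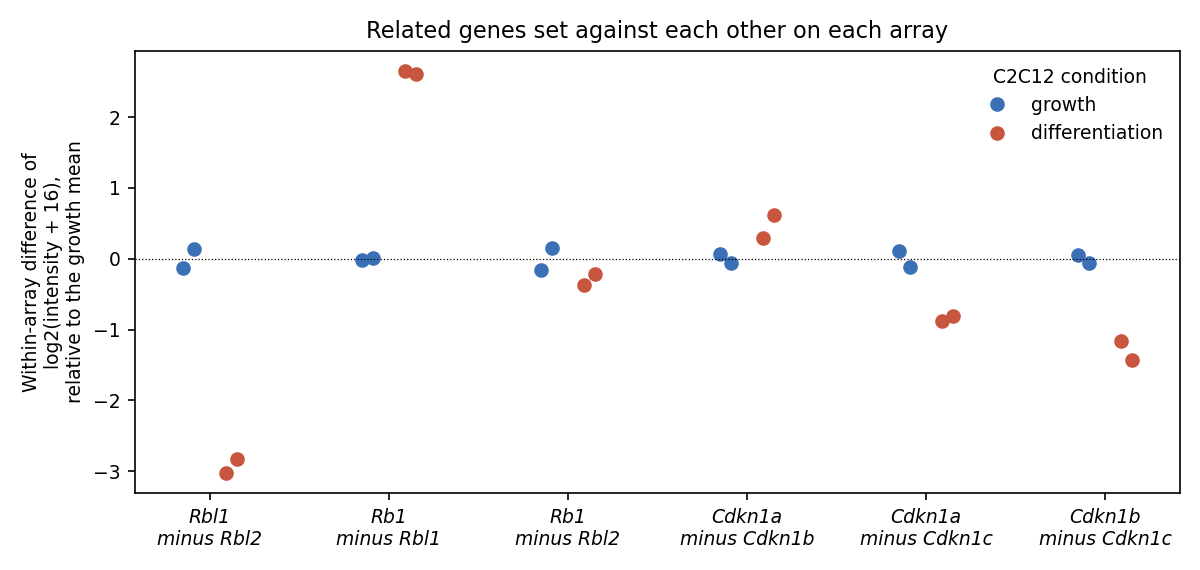
Difference between 2 related genes on each array, as log2(intensity + 16) of the first minus the second, relative to its mean over the growth arrays (vertical axis), for growth (blue) and differentiation (red). Rbl1 minus Rbl2 lies at -3.02 and -2.82 in differentiation, the widest of the 6 pairs, and Rb1 minus Rbl2 lies nearest to the growth arrays.

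The partners and targets of these proteins were counted on lists of genes drawn up by their known roles, with the same test over all clusters. By it 8.64% of all clusters were higher and 7.52% lower. In the lists of which no gene rose by the limma test, none rose at an unadjusted p under 0.05 either, except Ccnd3. Of 5 genes for the D-type cyclins and their kinases, 1 fell and none rose, with a median change of -0.34. The kinases Cdk4 and Cdk6, not the cyclins, are the direct targets of INK4 proteins. Ccnd1, the cyclin D1 gene, fell from 3219 and 3373 to 828 and 924 (-1.89 ± 0.18 SE, limma adjusted p = 0.000466). Ccnd3, for the D cyclin known to persist in differentiating myoblasts, was at 495 and 523 against 706 and 666 (0.42 ± 0.18, adjusted p = 0.146). Ccnd2 (-0.34 ± 0.19), Cdk4 (-0.07 ± 0.18) and Cdk6 (-0.71 ± 0.21, adjusted p = 0.0547) did not pass. Cdk6 did pass with an offset of 64 (limma adjusted p = 0.0131) and among clusters brighter than the 25th percentile (0.0266) or the median (0.00966). It also passed with an intensity trend (0.000582) and with the replicate block (0.0441). The sign for Cdk4 turned without growth replicate 2 (0.035). Of 9 genes for cyclins E, A and B, their kinases and the Cdc25 phosphatases, 8 fell and none rose, with a median of -2.20. These cyclins and kinases form complexes that Cip/Kip proteins act on, and the Cdc25 phosphatases are not part of them. The cyclin E genes Ccne2 (-3.45 ± 0.20) and Ccne1 (-2.54 ± 0.18), the cyclin A gene Ccna2 (-2.66 ± 0.18) and Cdc25c (-2.41 ± 0.18) had the smallest adjusted p-values. Cdk2, the kinase partner of cyclins E and A, was at 1123 and 1143 against 692 and 778 and did not pass (-0.62 ± 0.18, adjusted p = 0.0545). It did pass under quantile normalization (limma adjusted p = 0.0468), with an offset of 64 (0.0114) and with an intensity trend (0.00187). Among clusters brighter than the 25th percentile (0.0270) or the median (0.00911) it passed too.

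Of 8 E2F and DP genes measured 3 fell and none rose, with a median of -0.35. The 2 atypical repressors E2f7 (-2.19 ± 0.18 SE, limma adjusted p = 0.000256) and E2f8 (-1.74 ± 0.18, adjusted p = 0.000674) fell, as did the activator E2f1, from 721 and 678 to 364 and 376 (-0.89 ± 0.18, adjusted p = 0.0138). E2f4, the E2F known to pair with p107 and p130, was at 306 and 301 in growth and at 244 and 315 in differentiation, with overlap (-0.12 ± 0.20), and turned to 0.051 without differentiation replicate 1. E2f5, the other partner of p130, changed by -0.36 ± 0.22 and E2f6 by -0.35 ± 0.21, and E2f2 was dim (-0.03 ± 0.26, turning in sign without growth replicate 2 or differentiation replicate 2, at 0.33 and 0.014); none of these passed. The call of E2f1 was lost without growth replicate 1 (adjusted p = 0.0669), differentiation replicate 1 (0.0918) or differentiation replicate 2 (0.0907).

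E2F target genes fell as a list. Of 25 listed, 22 were measured and all 22 passed as lower, with a median of -2.20 and a range of -3.45 to -0.89, against -0.01 for all clusters, and 20 to 22 passed with 1 array left out. The replicative helicase genes Mcm5 (-3.33 ± 0.18 SE) and Mcm3 (-3.25 ± 0.18), the licensing gene Cdc6 (-3.39 ± 0.19), Ccne2 and the thymidine kinase gene Tk1 (-3.09 ± 0.19) tied for the smallest adjusted p, 0.000158. The fall of Rbl1, at -2.42, lies within the range of these genes, as do those of Cdkn3 (-1.63) and Ccnd1 (-1.89), which are not on the list. A link of Rbl1 to the list was not tested. The list shares Ccne1, Ccne2, Ccna2, Cdk1 and E2f1 with the lists above.

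Of 6 genes measured for the DREAM and MuvB complexes, in which p107 or p130 joins E2F and a core of Lin proteins, 3 fell and none rose, with a median of -0.70. Lin9 fell from 654 and 744 to 177 and 196 (-1.82 ± 0.18 SE) and Lin54, the DNA-binding subunit, from 992 and 1014 to 393 and 442 (-1.24 ± 0.18). Lin37 was dim and did not pass (-0.17 ± 0.18). Mybl2, which encodes B-Myb, a partner of the core in dividing cells and itself an E2F target, fell most of the 3 (-2.62 ± 0.18, limma adjusted p = 0.000165). The call of Lin54 was lost without differentiation replicate 1 (adjusted p = 0.0514). Of 12 chromatin proteins known to bind pocket proteins, 2 rose and 1 fell, with a median of -0.17. Beside these few genes, 8.64% of all clusters were higher and 7.52% lower. The DNA methyltransferase gene Dnmt1 fell (-1.54 ± 0.19), and the demethylase gene Kdm5a (0.87 ± 0.20) and the remodeller gene Smarca2 (0.93 ± 0.20) rose. Both rises were lost without growth replicate 1 (adjusted p = 0.122 and 0.0679) and when either differentiation array was left out (0.0561 to 0.145), and that of Smarca2 also without growth replicate 2 (0.0562).

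Ubiquitin ligase genes that set the protein level of the inhibitors were also read, since RNA does not report it. Of 14 measured, 4 fell and 2 rose, with a median of 0.14, against 7.52% lower and 8.64% higher over all clusters. Skp2, the F-box protein that targets p27, p21, p57 and p130, was at 1198 and 1120 in growth and at 485 and 425 in differentiation, and fell by 1.32 on the log2 scale (SE 0.18, limma adjusted p = 0.00291). Dtl, the adaptor that targets p21 in S phase, fell from 452.5 and 589 to 86.7 and 76.1 (-2.45 ± 0.20), and Cdc20, the activator of the anaphase-promoting complex, fell as well (-2.28 ± 0.19). Cul1, the scaffold of the ligase that Skp2 belongs to, rose from 757 and 995 to 1585 and 1531 (0.83 ± 0.20, adjusted p = 0.0289). The call of Cul1 was lost without growth replicate 1 (adjusted p = 0.144), differentiation replicate 1 (0.139) or differentiation replicate 2 (0.136). The number risen was 1 without growth replicate 2 and 0 without each of the other 3 arrays. Protein levels were not measured.

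**Figure D4:**
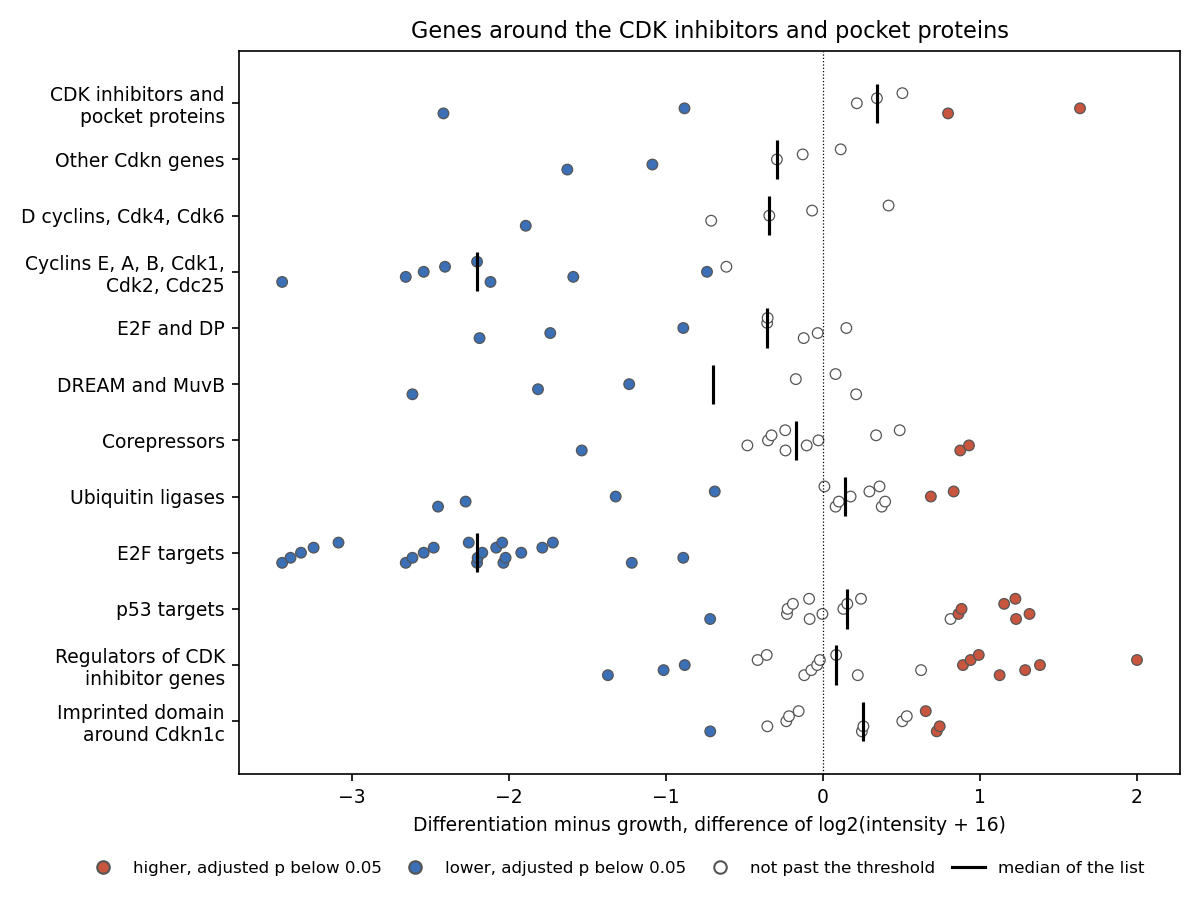
Change of each measured gene, differentiation minus growth, as a difference of log2(intensity + 16) (horizontal axis), by list (rows); red points were higher and blue points lower past the threshold, open points did not pass, and bars are list medians. The E2F targets lie wholly below 0 with a median of -2.20. So does the list of cyclins E, A and B with their kinases and Cdc25 phosphatases, with -2.20. The CDK inhibitor and pocket protein genes spread from -2.42 to 1.64.

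Genes known to control transcription of the CDK inhibitors moved both ways. Of 19 measured 7 rose and 3 fell, with a median of 0.08, against 8.64% higher and 7.52% lower over all clusters. Heyl, a Notch target (2.00 ± 0.18 SE), the muscle factor Myog (1.38 ± 0.18) and Klf4, an activator of Cdkn1a (1.29 ± 0.18), rose, and Myc, a repressor of Cdkn1a, fell from 1769 and 1722 to 694 and 637 (-1.37 ± 0.18, limma adjusted p = 0.00220). Myod1, which is known to induce Cdkn1a and Cdkn1c in muscle cells, rose from 1182 and 1279 to 2168 and 2430 (0.89 ± 0.18, adjusted p = 0.0155). Foxo3, an activator of Cdkn1b, rose from 519 and 484 to 973 and 1056 (0.99 ± 0.18, adjusted p = 0.00948), while its relative Foxo1 did not pass (-0.07 ± 0.18, and 0.0086 without differentiation replicate 2). The call of Myod1 was lost without growth replicate 1 (adjusted p = 0.0737) and without differentiation replicates 1 (0.0743) and 2 (0.114), and that of Foxo3 without differentiation replicates 1 (0.0643) and 2 (0.0871). The number of risen regulators was 3 without differentiation replicate 1 and 4 without differentiation replicate 2, and the number fallen was 1 each time.

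Of 17 other genes that p53, the best known inducer of Cdkn1a, is known to activate, 6 rose and 1 fell, with a median of 0.15. The shares over all clusters were 8.64% higher and 7.52% lower. The antiproliferative gene Btg2 (1.32 ± 0.18 SE), Trp53inp1 (1.23 ± 0.18), the stress gene Gadd45a (1.23 ± 0.19) and Sesn1 (1.15 ± 0.19) rose beside Cdkn1a. Mdm2, the p53 ubiquitin ligase and a well-known target of it, was at 945 and 1006 in growth and at 879 and 825 in differentiation and did not pass (-0.19 ± 0.18, limma adjusted p = 0.482). Trp53 itself had no cluster of its own symbol. Without differentiation replicate 2 the number risen was 2, and Gadd45a (adjusted p = 0.0698) and Sesn1 (0.0777) lost their calls. No gene of this list fell with any 1 array left out.

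The genes of the imprinted domain around Cdkn1c, counted together with Igf2 and H19 of the adjoining domain, had smaller changes than Cdkn1c, a difference that was not tested. Of 12 measured, 3 rose and 1 fell, where 8.64% of all clusters were higher and 7.52% lower. The median was 0.25 and the range -0.72 to 0.74, all below the 1.64 of Cdkn1c. Kcnq1, the neighbour whose intron holds the control element that silences Cdkn1c on the paternal allele, was dim (-0.16 ± 0.19 SE), and Phlda2, an imprinted growth restrictor, was at 114 and 152 against 122 and 101 (-0.22 ± 0.21). The transporter gene Slc22a18 (0.74 ± 0.18) and the lipid transfer gene Osbpl5 (0.72 ± 0.19) rose, and the placental factor gene Ascl2, dim throughout, fell (-0.72 ± 0.18). In the adjoining domain, within the same count, the growth factor gene Igf2 rose from 1374 and 1392 to 2089 and 2288 (0.65 ± 0.18, limma adjusted p = 0.0435), and the noncoding RNA gene H19 was at 4588 and 5124 against 7074 and 6710 (0.51 ± 0.18, adjusted p = 0.0953). Each of these 4 calls was lost whichever array was left out, and the adjusted p then ran from 0.0540 to 0.146 for Slc22a18, 0.0632 to 0.181 for Osbpl5, 0.0644 to 0.151 for Ascl2 and 0.0953 to 0.191 for Igf2.

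The genes with the most similar profile to each member were named by the Euclidean distance between log2(intensity + 16) profiles over the 4 arrays, each centred on its mean, among 14349 other named genes. For Rbl1 these were Mastl, the mitotic kinase gene known as Greatwall (distance 0.0403, change -2.46), and Cenpn, a centromere protein gene (0.0406, -2.39). For Cdkn2c they were the SR splicing factor gene Srsf2 (0.0204, -0.87) and Pop5, of the RNase P complex (0.0326, -0.90). For Cdkn1c they were Cd200, a membrane glycoprotein gene (0.0867, 1.61), and Klhl31, a Kelch gene expressed in muscle (0.0994, 1.70). For Cdkn1a they were Lyplal1 (0.0247, 0.81) and Xirp1, of the actin-binding Xin proteins of striated muscle (0.0254, 0.78). For Cdkn1b they were Spen (0.00646, 0.34) and Rb1cc1 (0.0257, 0.35), for Rb1 Ppp4r2 (0.0200, 0.23) and Parg (0.0243, 0.19), and for Rbl2 Ikzf1 (0.0472, 0.53) and Cpz (0.0514, 0.50). With 4 arrays in 2 conditions such a match reflects little more than a change of the same size, and it was not tested.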

How the data were processed

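The authors deposited linear intensities, summarised with PLIER on the mouse build mm9, per the submitters' processing notes, as 1 value for each transcript cluster on each array. How background was corrected, how arrays were normalized and which PLIER version ran is not given in the sources used here, and no depth applies to arrays. Array medians were 168 to 177. Symbols came from the platform annotation. Of 14938 clusters with 1 symbol, 989 with several and 731 listed with none, 14883 of the first had an Entrez identifier in a RefSeq table of GRCm38.p6, which changed no symbol. For genes with several clusters the brightest was used.

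Intensities were taken as log2(value + 16) without further normalization or filter, and 2 growth arrays were compared with 2 differentiation arrays with limma 3.58.1 in R 4.3.3 (lmFit, eBayes, two-sided, Benjamini-Hochberg over 16658 clusters), tested on simulated data. Related genes were compared by exact permutation tests. Outside the members, the text names from each list the genes with the lowest adjusted p, at most 4, and a fixed set of partners. Tk1, tied with the E2F targets so chosen, is named as well but was not followed singly under the alternatives. The members and lists were chosen with earlier results of these data known. Cdkn2c could not be paired with Cdkn2d. Alternatives were quantile normalization, median centring, offsets of 1 and 64, filters at the 25th percentile and the median, an intensity trend, a robust prior, a replicate block and leaving out each array.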

Additional observations from a re-analysis of the deposited data

How the results depend on the processing

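The signs of the 7 changes held under every alternative run, and no change of Rbl1 (-2.50 to -2.21) or Cdkn1c (1.15 to 1.90) lost its call; Cdkn1c was too dim to be among the clusters above the median. With an array left out 1 or 2 members rose and 1 fell, with changes of 0.74 to 0.86 for Cdkn1a and -0.99 to -0.77 for Cdkn2c, and of all clusters 305 to 1189 were higher and 446 to 839 lower; an array alone in its group was taken to vary as much as the opposite group. With an offset of 1, 1 member rose and 1 fell, with changes of 0.80 for Cdkn1a and -0.91 for Cdkn2c short of the threshold, and 528 clusters were higher and 622 lower. Rbl2 passed with an offset of 64 (0.47), among clusters above the median (0.51) and with an intensity trend (0.51); the offset of 64 called 2201 clusters higher, and the trend called 2415 higher and 1947 lower. The sign of E2f2 turned under quantile normalization (0.014). With an array left out the changes of these genes spanned 0: Cdk4 -0.17 to 0.035, Cdkn2b -0.094 to 0.32, E2f2 -0.40 to 0.33, E2f4 -0.30 to 0.051 and Foxo1 -0.16 to 0.0086. The cause of these shifts was not tested. The deviations of same-numbered arrays correlated at -0.037. With 2 arrays per group this is a single correlation over clusters, and it cannot tell whether the samples were paired. With the replicate block the counts were 1369 clusters higher and 1195 lower, no member changed its call, and Cdk6 (-0.71) gained one while Igf2 (0.65) lost it. Of 763 values of the 60 other named genes under the alternatives, 663 kept direction and call, 78 lost the call, 14 gained one and 8 turned in sign. Signal near the floor limits Cdkn1c, Slc22a18 and Smarca2 in growth. It also limits Cdkn2b, E2f2, Ascl2, Kcnq1, Lin37, Ptprc and Fabp4. Over the alternatives Slc22a18 ran from 0.50 to 0.88 and Smarca2 from 0.66 to 1.12. All values are limited by 2 arrays per group.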
